A study of Mus musculus with 38 samples.

Results

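The 10 acute-phase genes described here were followed across 38 kidney RNA-Seq libraries: the fibrinogen chain genes Fga, Fgb and Fgg, the serum amyloid A genes Saa1, Saa2 and Saa3, the signalling genes Socs3, Osmr and Stat3, and Hp, which encodes haptoglobin. They were chosen by gene symbol, each symbol matched 1 row, and they are 10 of the 55487 genes of the deposited count table. The libraries came from 3 experiments on fibroblast growth factor 23 (FGF23), a bone-derived hormone that lowers phosphate reabsorption in the kidney. The experiments asked how the kidney responds to excess FGF23 when it is healthy and when it is diseased.

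The anti-GBM experiment used male C57BL/6JRj mice, aged 8 weeks at the start, in which a nephrotoxic serum against the glomerular basement membrane was injected after immunization with sheep IgG in adjuvant. The text of the study does not state whether control mice were also immunized. If they were not, the effects of serum and immunization cannot be told apart. Controls were treated with PBS. These mice were given 6 daily intravenous injections of 1 µg recombinant FGF23 or of vehicle: 4 healthy mice with vehicle, 3 healthy mice with FGF23, 4 anti-GBM mice with vehicle and 3 anti-GBM mice with FGF23. The Adriamycin experiment used female BALB/c mice of the same starting age, in which the podocyte toxin Adriamycin or saline was followed by 1 injection of FGF23 or of vehicle and the kidneys were collected 24 h later, with 4 mice in each of 4 groups. Precision-cut kidney slices (PCKS) came from male DBA/2J mice fed 0.2% adenine, a diet that damages the tubules, also aged 8 weeks at the start, and were cultured with FGF23 (4 cultures) or vehicle (4 cultures), without slices of healthy kidneys. The labels give 1 h for the treatment with FGF23 and the text of the study gives 24 h, while its methods give another length for the slices in medium, so the length is uncertain. Total counts per library ran from 11186925 to 27583911. All 8 kidney markers examined were detected in every library, and the correlation of a library with the mean of the rest of its group ran from 0.978 (slice culture PCKS-F1) to 0.995.

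The acute-phase response is a change in plasma protein synthesis, best known in the liver, that follows infection or tissue injury. Interleukin-6 and its relatives, among them oncostatin M, leukaemia inhibitory factor and interleukin-11, bind receptors that share the chain gp130 (gene Il6st), and JAK kinases then phosphorylate STAT3, which enters the nucleus. Osmr encodes a receptor chain that pairs with gp130 to bind oncostatin M, and Socs3 encodes an inhibitor that is induced by STAT3 and shuts the receptor down. Fibrinogen is assembled from pairs of the alpha (Fga), beta (Fgb) and gamma (Fgg) chains and is cleaved to fibrin in clotting. Injured tubular epithelium can also transcribe the fibrinogen genes. Serum amyloid A proteins associate with lipoproteins and haptoglobin binds free haemoglobin. Saa3 and Hp are also transcribed in fat.

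The fibrinogen genes lie together on chromosome 3 (GRCm38) within 42140 bp, at 83007724 to 83015049 for Fgg (forward strand), 83026076 to 83033627 for Fga (forward strand) and 83040141 to 83049863 for Fgb (reverse strand). Saa3 (46711998 to 46715700, reverse strand), Saa1 (46740497 to 46742980, reverse strand) and Saa2 (46751790 to 46754313, forward strand) form a second cluster, on chromosome 7. Because the fibrinogen genes moved together in the results that follow, the RefSeq sequence (GRCm38.p6) before their starts is shown, 5′ to 3′ on the strand of the gene. Promoter entries were found for 9 of the 10 genes, all but Hp. Capitals mark the letters TTCNNNGAA, a STAT palindrome, CTGGGAA, the core of the interleukin-6 response element, and TTNCNNAA, a C/EBP-like motif. All were searched on both strands of the 250 bases before each RefSeq start, and no marked motifs overlapped. Bases that another annotation counts as transcribed are left out, which shortened the Fga window to 173 bases.
Fga, chr3:83025903-83026075, forward strand: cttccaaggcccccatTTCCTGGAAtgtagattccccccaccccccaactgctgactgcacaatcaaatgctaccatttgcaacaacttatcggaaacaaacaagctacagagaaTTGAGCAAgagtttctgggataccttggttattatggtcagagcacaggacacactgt
Fgb, chr3:83049864-83050113, reverse strand: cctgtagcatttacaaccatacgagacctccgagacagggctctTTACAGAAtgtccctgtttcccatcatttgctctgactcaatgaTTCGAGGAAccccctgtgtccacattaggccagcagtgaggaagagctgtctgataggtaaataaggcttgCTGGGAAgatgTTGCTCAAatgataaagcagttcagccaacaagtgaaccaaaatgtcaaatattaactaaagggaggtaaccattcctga
Fgg, chr3:83007474-83007723, forward strand: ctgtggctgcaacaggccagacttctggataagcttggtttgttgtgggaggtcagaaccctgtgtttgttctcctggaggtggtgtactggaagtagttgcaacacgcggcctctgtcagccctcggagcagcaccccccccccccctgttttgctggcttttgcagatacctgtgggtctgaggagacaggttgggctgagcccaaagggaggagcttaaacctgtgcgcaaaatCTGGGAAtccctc
Distances are to the RefSeq start. The STAT palindrome stood 234 bp before the start of Fga and 162 bp before that of Fgb. These letters were not in the windows of Fgg, Saa1, Saa2, Saa3, Osmr and Stat3. The 250-base window of Socs3, a known STAT3 target whose window is not printed because it lies inside a longer annotated transcript, held the palindrome 154 bp before the start. In all, 7.02% of 32851 RefSeq promoter windows held it. The CTGGGAA core stood 91 bp before Fgb and 13 bp before Fgg and in none of the other windows of these genes. It was held by 9.10% of all windows. The C/EBP-like letters stood at 1 place before Fga, Saa2 and Stat3, at 2 places before Fgb and Saa1 and at 4 places before Saa3. They were absent from the windows of Fgg, Socs3 and Osmr and were held by 36.8% of all windows. These matches describe letters and were not tested as binding sites.

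In healthy kidneys the 3 fibrinogen genes were transcribed at low and unequal levels. In the 4 healthy mice given vehicle for 6 days, Fga was at 15.1, 19.7, 20.4 and 26.4 CPM (counts scaled to library size with TMM factors), Fgg at 6.54, 6.80, 7.13 and 7.88 CPM, and Fgb at 0.855, 0.905, 1.55 and 4.44 CPM. Per kilobase of the principal transcript, Fga was highest with 7.89 ± 1.80 CPM (SD, n = 4), followed by Fgg with 4.18 ± 0.345 CPM and Fgb with 0.508 ± 0.446 CPM. In both healthy groups the ranges of the 3 genes per kilobase did not overlap. Healthy mice given FGF23 held Fga at 15.8 to 21.4 CPM, Fgg at 5.12 to 7.60 CPM and Fgb at 0.469 to 1.15 CPM, ranges that overlap those of the vehicle group.

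All 3 fibrinogen genes rose in anti-GBM disease. Fga was at 54.2, 95.2, 266.1 and 455.6 CPM in the 4 anti-GBM mice given vehicle, all above the highest healthy mouse, a log2 fold change of 3.42 ± 0.56 (SE; adjusted p = 0.000380, from the edgeR quasi-likelihood fit that gives all p-values here unless another tool is named). Fgg was at 39.3, 66.1, 164.4 and 317.2 CPM, and its log2 fold change was 4.38 ± 0.58 (adjusted p = 8.42e-05). Fgb was at 5.88, 6.82, 40.4 and 110.2 CPM, the lowest of which was close to the highest healthy value, with a log2 fold change of 4.46 ± 0.90 (adjusted p = 0.00162). The spread within the diseased group was wide, and the same mouse, NTS7, was highest for all 3 genes. Without it the log2 fold changes were 2.76 for Fga, 3.66 for Fgg and 3.23 for Fgb, and each gene still passed the test. Without the healthy mouse NTS4, which had the highest healthy Fgb, the log2 fold change of Fgb was 5.24.

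The same comparison in other mice, those given FGF23, gave similar values. Fga was at 87.0, 119.7 and 252.8 CPM in the 3 anti-GBM mice given FGF23, a log2 fold change of 3.04 ± 0.64 against healthy mice given FGF23 (adjusted p = 0.00311). Fgg was at 61.1, 80.4 and 172.2 CPM, with a log2 fold change of 3.97 ± 0.66 (adjusted p = 0.000677). Fgb was at 8.61, 10.6 and 23.5 CPM, with a log2 fold change of 4.11 ± 1.15 (adjusted p = 0.0164). For each gene the diseased and healthy values did not overlap. The Fgb call depended on single mice, since its adjusted p was 0.0682 without NTS9, 0.0532 without NTS11 and 0.0600 without NTS13.

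**Figure D1:**
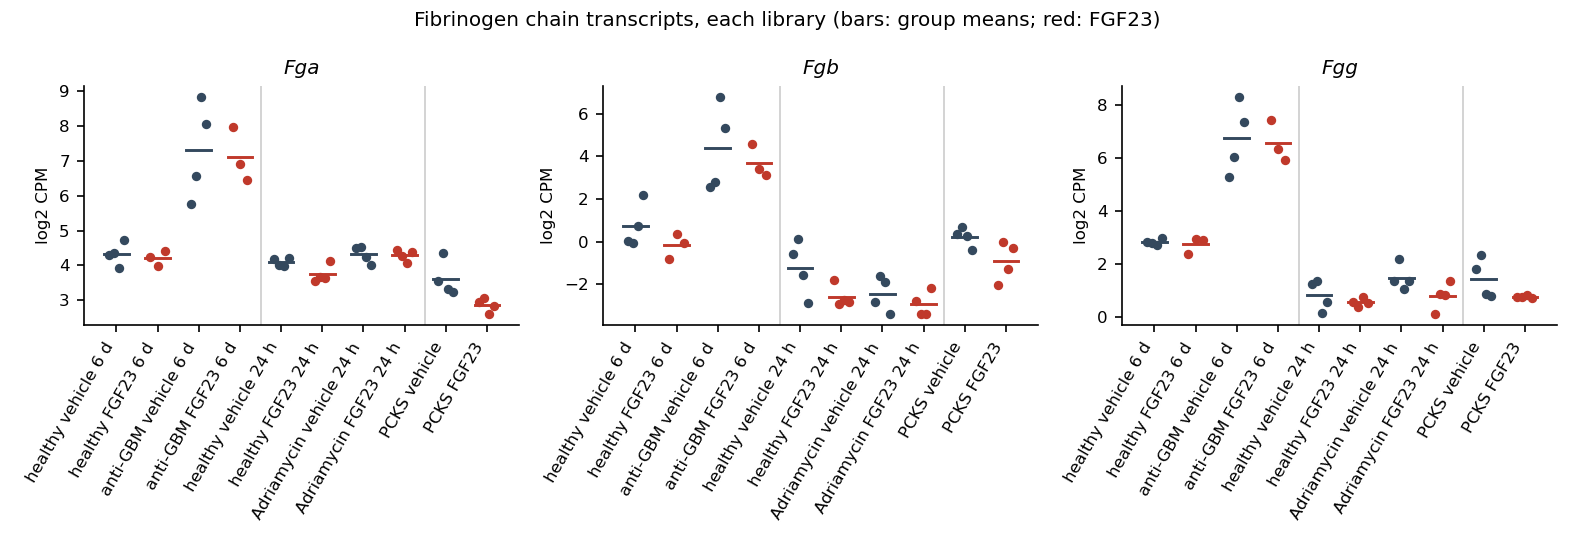
Log2 CPM (prior count of 2) of Fga, Fgb and Fgg in each library of the 10 groups, with horizontal bars at the group means, FGF23 in red and vehicle in dark blue; vertical lines separate the 3 experiments, which were scaled separately. The 7 anti-GBM mice sit above the 7 healthy mice of that experiment for each gene, whereas no such separation is seen for Adriamycin.

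The proportions of the chains differed as well as the level. Taking the 3 genes per kilobase, Fgg made up 33.8% ± 3.84 (SD, n = 4) of fibrinogen transcripts in healthy mice given vehicle and 48.7% ± 2.20 (n = 4) in anti-GBM mice given vehicle. With FGF23 it was 34.8% ± 6.07 (n = 3) and 49.6% ± 0.491 (n = 3). The Fga share went from 62.4% ± 3.23 to 46.8% ± 1.75 with vehicle and from 63.4% ± 6.88 to 47.4% ± 0.618 with FGF23. No healthy mouse of this experiment had an Fgg share above 41.1% and no anti-GBM mouse one below 46.1%. This comparison was chosen after the values were seen and is given without a test. Fgb stayed the rarest chain transcript, with 1.18% to 7.27% in healthy and 2.31% to 7.38% in anti-GBM mice, ranges that overlap.

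**Figure D2:**
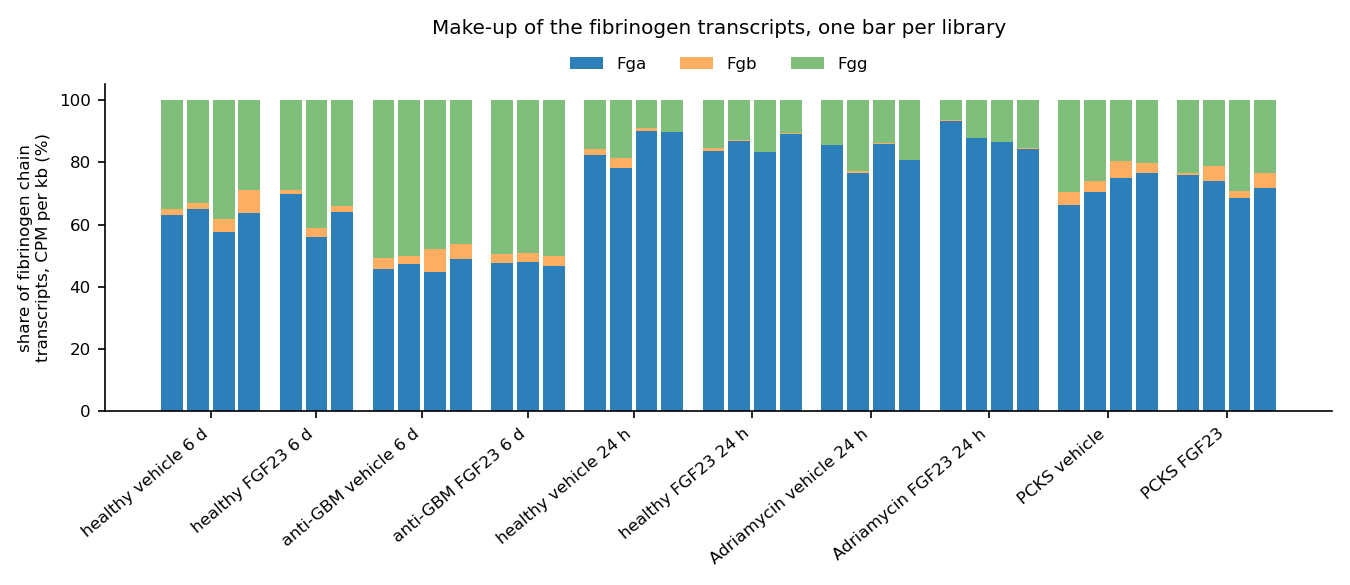
Share of Fga, Fgb and Fgg (%) in the summed CPM per kilobase of the 3 genes, with 1 stacked bar per library in the 10 groups. In the 7 anti-GBM mice Fga and Fgg take nearly equal shares, while Fga takes over 56% in all healthy mice, Adriamycin mice and slices.

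Saa1 transcripts were nearly undetected in healthy kidneys of the anti-GBM experiment and present in diseased ones. The counts were 0, 0, 1 and 1 in healthy mice given vehicle, against 5, 11, 55 and 59 in anti-GBM mice given vehicle. The ratio of the scaled counts was 70.1, with an exact 95% counting interval of 19.02 to 585.0 that covers counting error only (adjusted p = 0.00234). With FGF23 the counts were 0 in all 3 healthy mice and 15, 20 and 66 in the anti-GBM mice, so that Saa1 was at least 9.94-fold higher, taking 3 counts per healthy library as the floor (adjusted p = 0.00679). Saa1 passed edgeR's count filter only through the anti-GBM mice, so its adjusted p-values belong to a gene that was tested because of its counts in disease. Saa2 and Saa3 stayed below that filter. Saa2 had 0, 2, 7 and 13 counts in anti-GBM mice given vehicle and 1 or 2 counts in those given FGF23, against at most 1 count in a healthy mouse. Saa3 had 3 to 17 counts in anti-GBM mice given vehicle, 0 to 5 in those given FGF23 and 0 to 10 in healthy mice, so its ranges overlap. Saa1 and Saa2 are related in sequence: 9.11% of the 50-base stretches of the principal Saa1 transcript, and 0% of its 100-base stretches, occur unchanged in that of Saa2. Reads from the shared stretches could have been assigned to either gene or discarded, so the split between them is uncertain to that extent.

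Socs3 rose with the disease as well. It was at 1.95 to 3.74 CPM in healthy mice given vehicle and at 16.5, 24.6, 52.3 and 85.4 CPM in anti-GBM mice given vehicle, a log2 fold change of 4.02 ± 0.47 (adjusted p = 3.42e-05). With FGF23 it was at 3.70 to 5.16 CPM in healthy mice and at 22.5, 33.5 and 40.8 CPM in anti-GBM mice, a log2 fold change of 2.89 ± 0.51 (adjusted p = 0.00101). The difference between these effects did not pass the test of the interaction (adjusted p = 0.666).

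The receptor and the transcription factor changed less and varied less. Osmr went from 10.02 to 11.4 CPM in healthy mice given vehicle to 35.3, 38.3, 38.7 and 44.3 CPM in anti-GBM mice (log2 fold change 1.87 ± 0.12, adjusted p = 7.76e-07). With FGF23 it went from 10.8 to 11.1 CPM in healthy mice to 43.1, 43.2 and 63.0 CPM in anti-GBM mice (log2 fold change 2.18 ± 0.14, adjusted p = 9.11e-07). Stat3 was at 82.9 to 100.6 CPM and at 160.3 to 234.9 CPM in the vehicle groups (log2 fold change 1.06 ± 0.12). It was at 73.8 to 81.1 CPM and at 178.1 to 223.6 CPM in the FGF23 groups (log2 fold change 1.34 ± 0.14). For neither gene did diseased and healthy mice overlap.

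Hp did not follow the other genes. With vehicle it was at 0.265, 0.396, 1.90 and 17.2 CPM in healthy mice and at 3.80, 4.25, 5.62 and 7.72 CPM in anti-GBM mice, and the difference did not pass the test (adjusted p = 0.955). With FGF23 it was at 0.418, 1.11 and 20.5 CPM in healthy mice and at 2.03, 3.17 and 7.16 CPM in anti-GBM mice (adjusted p = 0.652). The high healthy values belonged to NTS3 and NTS9. These mice also had the most Adipoq, the adipocyte gene for adiponectin, with 17.2 and 26.5 CPM against 0 to 3.85 CPM in the other 5 healthy mice, and the summed level of 6 adipocyte markers was 127 and 126 CPM in them. The part of fat in the Hp values was not tested.

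**Figure D3:**
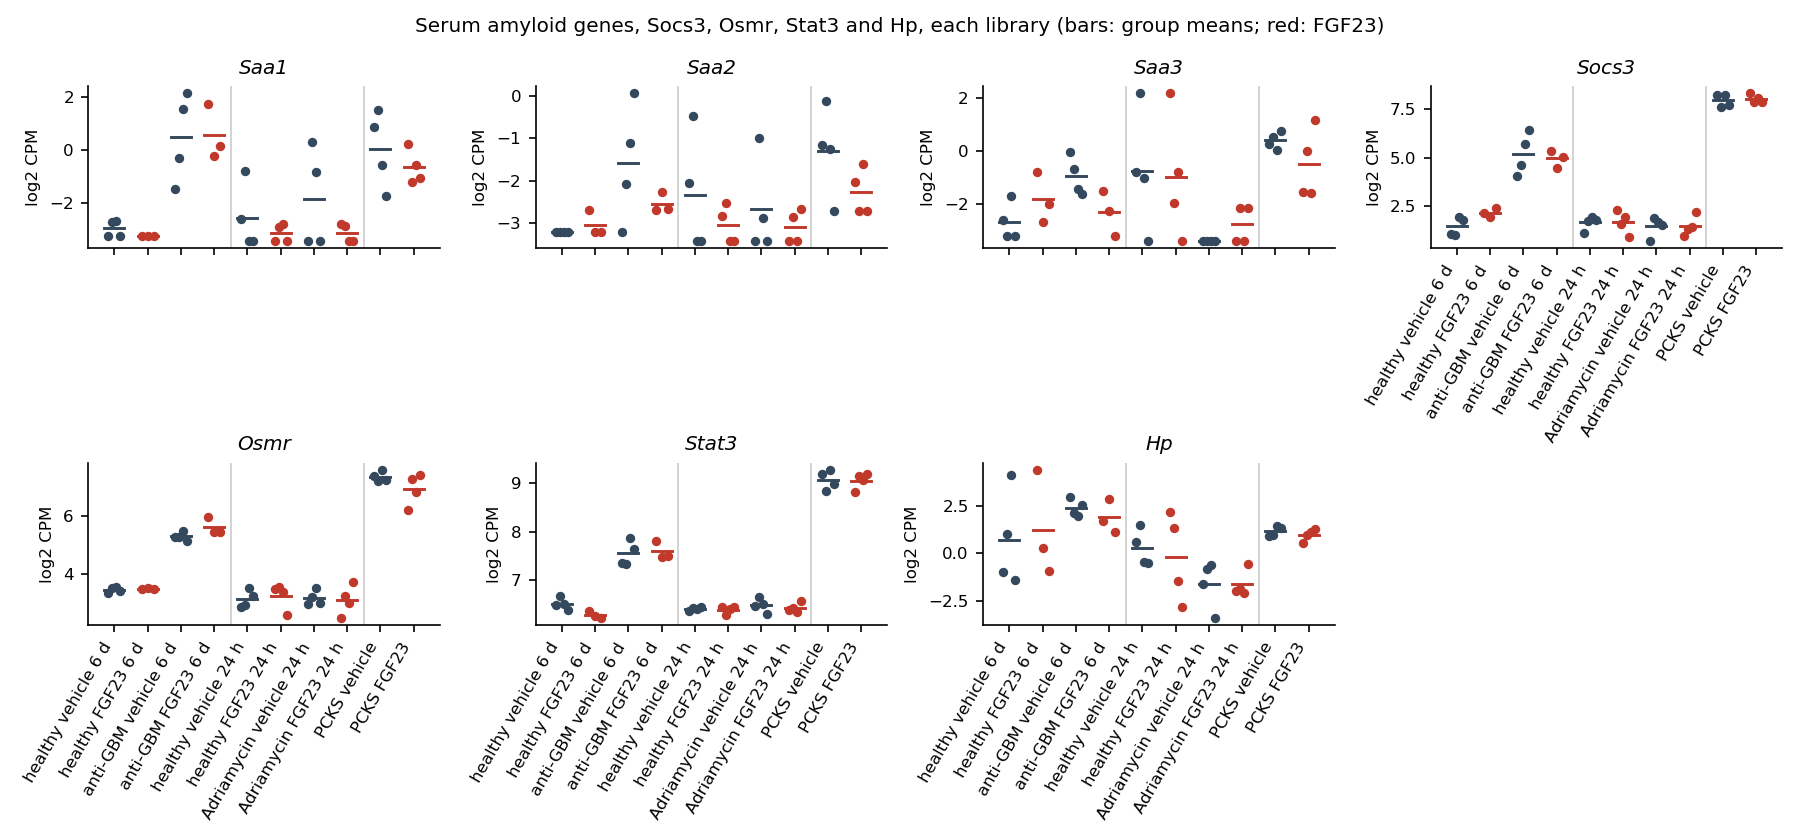
Log2 CPM (prior count of 2) of Saa1, Saa2, Saa3, Socs3, Osmr, Stat3 and Hp in each library, with horizontal bars at the group means, FGF23 in red and vehicle in dark blue. Socs3, Osmr and Stat3 are higher in anti-GBM mice than in healthy mice and highest in the slices, and Saa3 in mice is highest in 2 healthy libraries of the Adriamycin experiment, at 4.43 CPM each.

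Of the 8 genes tested in the anti-GBM experiment, 7 rose with vehicle and 7 with FGF23, and none fell. Over all 15859 tested genes, 39.8% were called with vehicle and 27.2% with FGF23, with 19.4% and 14.5% higher and 20.4% and 12.7% lower. The groups of 7 of the 8 did not overlap in either comparison, as for 35.2% and 45.4% of all genes. The median log2 fold change of the 8 genes was 3.72 with vehicle and 2.97 with FGF23, against -0.01 and -0.02 over all genes. Saa1 is among the 7 in both comparisons and had at most 1 count in a healthy mouse. It passed the count filter only through the anti-GBM mice, so being tested already required higher counts in disease. Leukocyte and injured-tubule markers were also higher in anti-GBM than in healthy mice. Of 8 macrophage and pan-leukocyte markers, 7 rose in both comparisons, and their summed level was 124.7 to 175.9 CPM in healthy and 273.4 to 529.7 CPM in anti-GBM mice. Among anti-GBM mice this sum was lowest in NTS7 (288.1 CPM) and NTS8 (273.4 CPM), the mice with the most Fga. It was 428.0 to 529.7 CPM in the others. All 7 injured-tubule markers rose in both, from 747.0 to 1417 CPM to 4966 to 18102 CPM in sum, and the highest sum was that of NTS7, the mouse with the most Fga, Fgb and Fgg, against 4966 to 10418 CPM in the other 6 anti-GBM mice. All 5 tested neutrophil markers rose with vehicle and 3 rose with FGF23. The 8 listed neutrophil markers summed to only 1.22 to 3.34 CPM in healthy mice. Genes this low can pass the count filter through the diseased mice, which can favour rises among those tested. The RNA of a mouse came from a fragment of its kidney. In such bulk RNA, more cells of a type and more RNA per cell cannot be told apart, and the part of these cells in the results was not tested. Of 7 tested hepatocyte markers, 1 fell and none rose with vehicle, and 1 fell and 1 rose with FGF23. Alb, the defining product of hepatocytes, fell by 1.23 on the log2 scale with vehicle (adjusted p = 0.0124) and by 1.23 with FGF23 (adjusted p = 0.0373), and Fetub, which encodes fetuin-B, rose with FGF23 (log2 fold change 0.76 ± 0.26, adjusted p = 0.0444). The summed hepatocyte markers were at 29.2 to 41.3 CPM in healthy and at 17.4 to 49.5 CPM in anti-GBM mice given vehicle. The 49.5 CPM belonged to NTS8, and the other anti-GBM mice given vehicle reached 24.3 CPM at most. NTS8 also had the highest Socs3 (85.4 CPM) and Saa1 (4.25 CPM) of the experiment, with Alb at 4.18 CPM. The part of hepatocyte transcripts in its values was not tested.

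Within the disease most, but not all, of the genes varied together from mouse to mouse. Over the 7 anti-GBM mice, as deviations of log2 CPM from the group means, the correlation of Fga was 0.97 with Fgb and 1.00 with Fgg, 0.92 with Saa1, 0.94 with Stat3 and 0.82 with Socs3. It was 0.52 with Osmr, -0.27 with Hp and -0.35 with Saa3. Saa3, at 0 to 17 counts in these mice, also had a negative correlation with Saa1 (-0.42), Saa2 (-0.70) and Socs3 (-0.62). Saa1 and Socs3 had a correlation of 0.96. Each point is 1 library, and both genes of a pair share its depth and tissue piece. Over the deviations of all 38 libraries, the 5 genes most like the mean of the 3 fibrinogen genes, among 13968 genes tested in all experiments, were Spp1 (0.81), Stra6l (0.76), Gimap8 (0.75), Lzic (0.74) and Tubb5 (0.73). Spp1 encodes osteopontin and is 1 of the injured-tubule markers. The 5 most like Socs3 were Pdlim7 (0.74), Mcam (0.74), Map7d1 (0.74), Eng (0.73) and Tmsb10 (0.72).

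The ligands upstream of these genes were uneven in anti-GBM disease. Of 7 gp130 ligands, 4 passed the count filter, and 3 rose in both disease comparisons, where 39.8% of all genes were called with vehicle and 27.2% with FGF23. Lif was at 0.333 to 0.596 CPM in healthy and at 3.22 to 9.76 CPM in anti-GBM mice given vehicle (log2 fold change 3.66 ± 0.48, adjusted p = 8.43e-05). A gene this low in healthy mice can pass the count filter through the diseased mice, which can favour rises among the 4 tested ligands. The log2 fold changes with vehicle were 2.16 ± 0.27 for Clcf1, which encodes a cytokine of the same family, and 1.74 ± 0.53 for Il11. Il6 had 0 counts in the healthy mice given vehicle and 0 to 6 in the anti-GBM mice given vehicle, and Osm had 0 to 2 and 1 to 9 counts. Neither was tested. Of 7 receptors and kinases, 2 were called with vehicle and 1 with FGF23, shares below those over all genes: Il6ra rose in both comparisons (log2 fold change 0.82 ± 0.13 with vehicle and 1.02 ± 0.15 with FGF23) and Lifr fell by 0.23 with vehicle. The log2 fold change of Il6st was -0.17 ± 0.11 with vehicle and 0.23 ± 0.12 with FGF23, and neither passed the test (adjusted p = 0.208 and 0.178).

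Some of the transcription factors and most of the other tested acute-phase genes rose. Of 11 feedback and transcription factor genes, 6 rose and 1 fell with vehicle, and 6 rose with FGF23, against 19.4% and 14.5% higher over all genes. Cebpd and Cebpb, C/EBP factors that act on acute-phase promoters, rose with log2 fold changes of 3.33 ± 0.31 and 2.39 ± 0.23 with vehicle. Of 22 other positive acute-phase genes, 15 were tested, and 10 rose and 1 fell with vehicle, while 11 rose and 1 fell with FGF23. Over all genes 19.4% and 14.5% were higher and 20.4% and 12.7% lower. The median log2 fold change of the 15 was 1.77 and 1.85. Genes low in healthy mice can pass the count filter through the diseased mice, which can favour rises among those tested. The largest changes with vehicle were those of Lcn2 (6.75 ± 0.70), which binds bacterial iron carriers and is also 1 of the injured-tubule markers, Timp1 (4.92 ± 0.43), a protease inhibitor, Serpina3n (4.84 ± 0.66) and the complement gene C3 (4.33 ± 0.54). Of 9 genes of fibrin turnover, against 19.4% and 14.5% higher over all genes, 6 rose with vehicle and 6 with FGF23. Plat, which encodes the tissue-type plasminogen activator, was among them (log2 fold change 1.36 ± 0.16 and 1.16 ± 0.19). Plg, which encodes plasminogen, fell by 1.88 on the log2 scale with vehicle (adjusted p = 0.0243) at no more than 1.20 CPM in any of those mice. Of 5 tested negative acute-phase genes, Alb fell in both comparisons.

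No effect of FGF23 on these genes in anti-GBM mice passed the test. None of the 8 tested genes was called by edgeR or by DESeq2, 1 had an unadjusted p under 0.05, as 12.6% of all genes did, and 0.24% of all genes were called. None had groups without overlap, as 9.22% of all genes did. That 1 gene was Osmr, with a log2 fold change of 0.35 ± 0.12 (adjusted p = 0.330), for which anti-GBM mice given FGF23 and vehicle overlapped. The log2 fold changes were -0.51 ± 0.54 for Fga, -0.49 ± 0.53 for Fgg, -1.52 ± 0.81 for Fgb and -0.46 ± 0.42 for Socs3. They rested on single mice: without NTS7 the values were 0.15 for Fga, 0.22 for Fgg and -0.30 for Fgb, and without NTS8 that of Socs3 was 0.058. In healthy mice 6 days of FGF23 called none of the 8 genes with either tool, none had an unadjusted p under 0.05, and 0% of all genes were called. Only Stat3 had groups that did not overlap, with 73.8 to 81.1 CPM with FGF23 and 82.9 to 100.6 CPM with vehicle, as did 7.31% of all genes (adjusted p = 0.996). In the interaction of FGF23 with disease none of the 8 was called by either tool, none had an unadjusted p under 0.05, and 0.0315% of all genes were called.

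In the Adriamycin experiment the fibrinogen genes stayed near the healthy level. Fga was at 15.8 to 18.6 CPM in healthy mice given vehicle and at 15.9 to 22.9 CPM in Adriamycin mice given vehicle, a log2 fold change of 0.23 ± 0.13 (adjusted p = 0.696). With FGF23 it was at 11.5, 12.4, 12.6 and 17.5 CPM in healthy mice and at 16.8, 19.4, 20.8 and 21.7 CPM in Adriamycin mice, and these groups overlapped through 1 healthy mouse, Ad12. Its log2 fold change, 0.54 ± 0.14, did not pass the test (adjusted p = 0.0883). It did pass in DESeq2 (0.54, adjusted p = 0.0112), without a count filter (0.54, adjusted p = 0.0419) and without Ad12 (0.69, adjusted p = 0.0148). The healthy mice given FGF23 were themselves low, by a log2 fold change of -0.34 ± 0.13 against vehicle (unadjusted p = 0.0221, adjusted p = 0.688). Fgg was at 1.03 to 2.51 CPM in healthy and 1.98 to 4.50 CPM in Adriamycin mice given vehicle (0.66 ± 0.30, adjusted p = 0.585). In Adriamycin mice given FGF23 it was at 0.986 to 2.51 CPM (-0.73 ± 0.31 against vehicle, adjusted p = 0.848). Fgb had 22 counts at most and was not tested. Per kilobase, Fga took 76.5% to 93.4% of the fibrinogen transcripts in these 16 female BALB/c mice, more than in any mouse of the anti-GBM experiment, which differs in strain and sex and was scaled separately.

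No difference in the signalling genes passed the test in the Adriamycin experiment. Socs3 ran from 1.54 to 4.86 CPM, Osmr from 5.40 to 12.99 CPM and Stat3 from 77.4 to 99.3 CPM over all 16 mice, and the 4 groups overlapped for each. Of 6 genes tested, edgeR called none with vehicle (1 with an unadjusted p under 0.05, as for 8.27% of all genes) and none with FGF23 (2, as for 12.7% of all genes), where 0.331% and 0.699% of all genes were called. DESeq2 called none with vehicle and 1, Fga, with FGF23. For FGF23 against vehicle none was called by either tool in healthy mice (1 with an unadjusted p under 0.05, as for 6.69% of all genes) or in Adriamycin mice (1, as for 5.69%), against 0% and 0.0375% of all genes. In the comparisons other than Adriamycin against healthy mice with vehicle no tested gene had groups without overlap, as 6.02% of all genes did for Adriamycin with FGF23, 3.14% for FGF23 in healthy mice and 3.41% for FGF23 in Adriamycin mice. In the interaction none was called by either tool, none had an unadjusted p under 0.05, and 0% of all genes were called. Among the pathway lists, Cebpb was higher in Adriamycin mice given FGF23 (27.5 to 44.2 CPM) than in those given vehicle (10.7 to 14.2 CPM), with a log2 fold change of 1.46 ± 0.18 (adjusted p = 0.00543), and no other gene of these lists was called for FGF23 in this experiment. The upstream ligand Il6 had 0 counts in all 16 mice.

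Hp and Saa3 were scattered in the healthy mice of this experiment. Hp was at 0.593 to 2.68 CPM in healthy and at 0 to 0.559 CPM in Adriamycin mice given vehicle, without overlap, as for 5.68% of all genes, but the difference did not pass the test (unadjusted p = 0.0509, adjusted p = 0.605). With FGF23 it was at 0.0471 to 4.48 CPM and at 0.143 to 0.579 CPM (log2 fold change -2.86 ± 0.99, adjusted p = 0.244). This value rested on single mice and was -1.92 without Ad9 and -3.47 without Ad16, neither of which passed the test. The Adriamycin mice had few Hp counts, 0 to 13 with vehicle and 3 to 9 with FGF23. A gene this low in them can pass the count filter through the healthy mice. Healthy mouse Ad9 had the highest Hp, 4.48 CPM, with Adipoq at 38.1 CPM, whereas Ad10 had 2.38 CPM of Hp with 34.9 CPM of Adipoq and Ad2 had 2.68 CPM with 0.134 CPM. The adipocyte markers summed to 0.141 to 272.2 CPM in the 8 healthy mice and to 0.172 to 15.6 CPM in the 8 Adriamycin mice. Saa3 had 99 counts in Ad2 and 93 in Ad9 and no more than 13 in any other mouse of this experiment. Ad2 also had the highest Saa2 (14 counts), Fgb (22 counts) and Alb (31.5 CPM against 7.28 to 12.1 CPM in the other 15 mice). Saa1 reached 25 counts in the Adriamycin mouse Ad6 and 11 counts in Ad7 and in Ad2, and had at most 2 counts in the other 13 mice. Fgb, Saa1, Saa2 and Saa3 were below the count filter in this experiment, and no group of 4 held any of them in every mouse at over 3 counts.

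**Figure D4:**
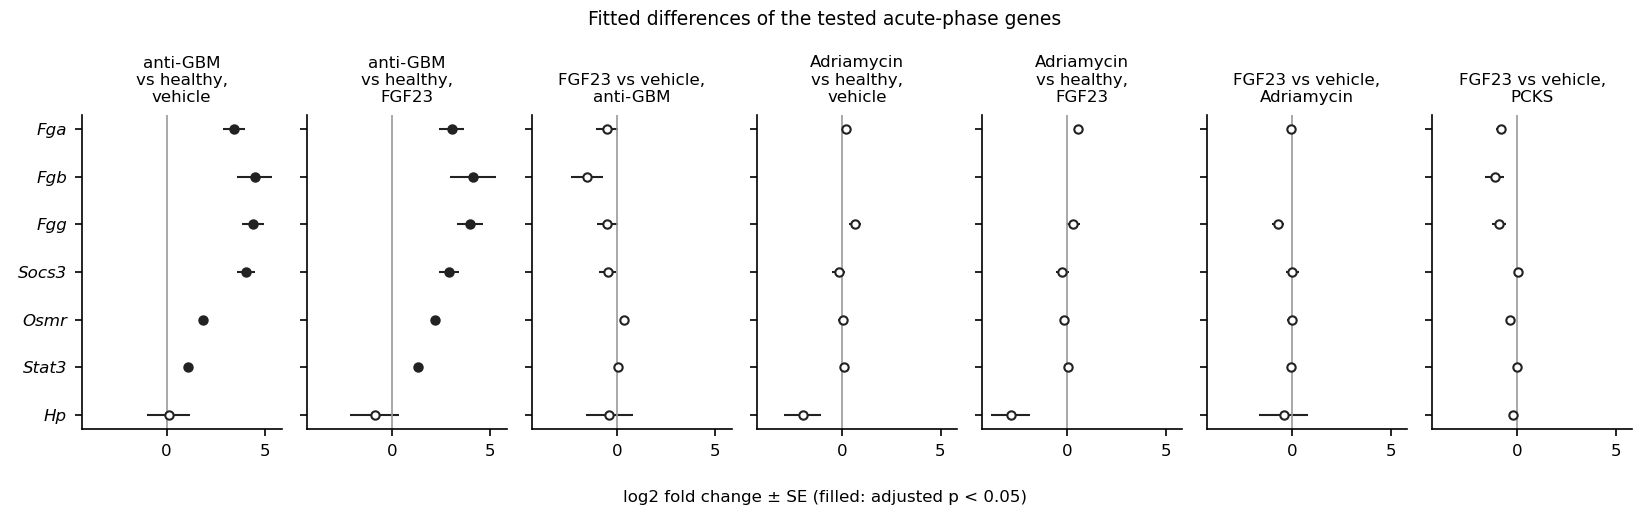
Log2 fold change with SE of the 7 genes other than the serum amyloid genes in 7 comparisons, from edgeR's quasi-likelihood fit of each experiment; filled points have an adjusted p under 0.05, and a gene without a point was below the count filter. The 12 filled points are those of the fibrinogen genes, Socs3, Osmr and Stat3 in the comparisons of anti-GBM with healthy mice.

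In the slices the signalling genes were above every mouse, while the fibrinogen genes were below the anti-GBM mice. Socs3 was at 196.7 to 306.3 CPM with vehicle and at 234.0 to 321.7 CPM with FGF23, above the 85.4 CPM of the highest anti-GBM mouse. Osmr was at 73.6 to 191.8 CPM and Stat3 at 454.0 to 617.4 CPM over the 8 slices, also above every mouse. Fga was at 5.88 to 20.2 CPM, Fgg at 1.49 to 4.92 CPM and Fgb at 0.0910 to 1.46 CPM, all below every anti-GBM mouse. Set beside the 16 mice of the Adriamycin experiment, where Fga was at 11.5 to 22.9 CPM, Fgg at 0.986 to 4.50 CPM and Fgb at 0 to 0.984 CPM, slices had Fgg and Fgb in or above the same range, and Fga partly below it. In the healthy mice of the anti-GBM experiment Fgg was at 5.12 to 7.88 CPM, above every slice. There Fga was at 15.1 to 26.4 CPM and Fgb at 0.469 to 4.44 CPM, ranges that overlap those of the slices. In the slices Saa1 had 2 to 46 counts, Saa2 0 to 13 and Saa3 2 to 25. Hp was even, with 1.27 to 2.56 CPM. The slices differ from the mice in strain, disease and culture and were scaled separately, so these levels are side by side only, with no test. The summed kidney markers were 2443 to 7806 CPM in slices and 10354 to 16054 CPM in mice.

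The ligands were also high in the slices. Il6 was at 28.998 to 156.7 CPM with vehicle and at 58.1 to 85.0 CPM with FGF23, where no mouse had more than 0.386 CPM. Lif was at 181.7 to 483.2 CPM, Il11 at 93.1 to 244.6 CPM and Osm at 5.19 to 8.14 CPM over all 8 slices. The acute-phase genes Lcn2 (673.1 to 1123 CPM) and Timp1 (140.5 to 278.0 CPM) were above every anti-GBM mouse too. Without healthy slices, what the disease and the culture each add cannot be told apart.

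**Figure D5:**
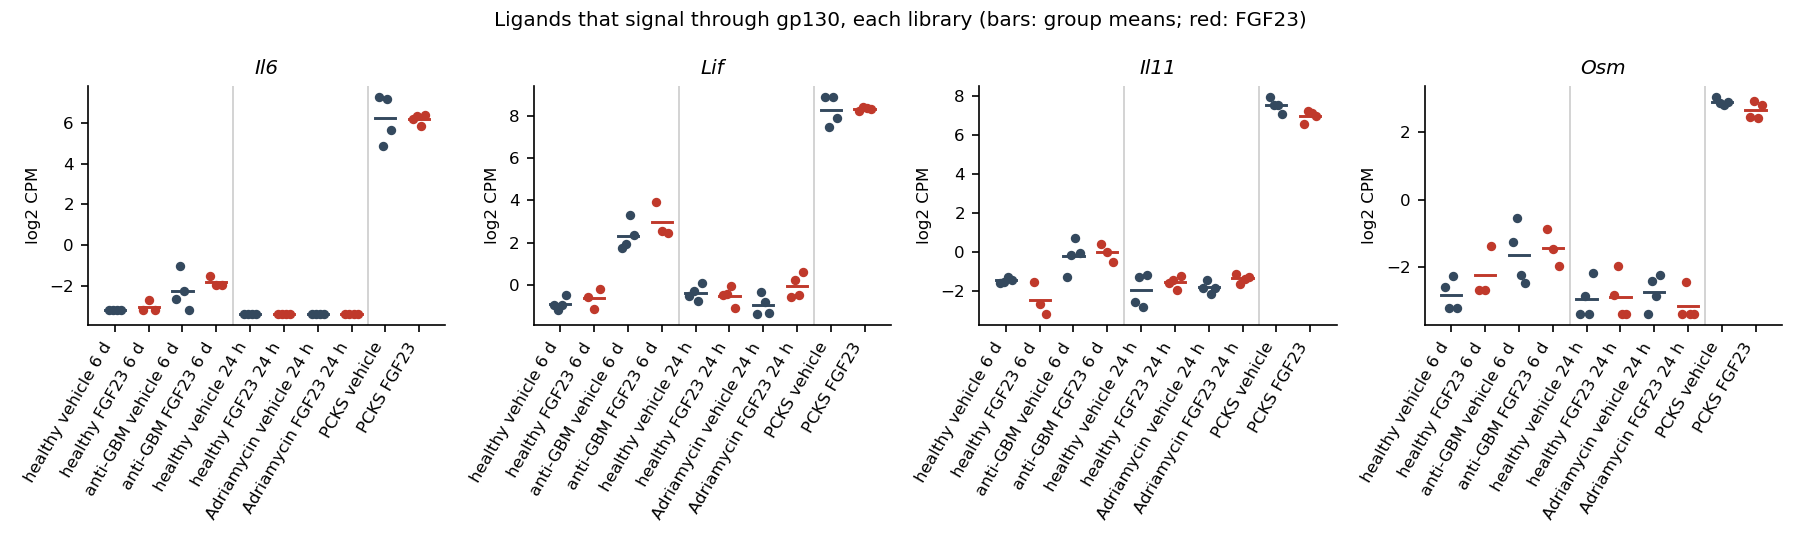
Log2 CPM (prior count of 2) of the gp130 ligand genes Il6, Lif, Il11 and Osm in each library, with horizontal bars at the group means, FGF23 in red and vehicle in dark blue. All 4 are highest in the 8 slices, and Lif is higher in anti-GBM mice than in healthy mice.

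The fibrinogen genes were lower in slices with FGF23, short of the threshold. Fga was at 9.22, 9.79, 11.5 and 20.2 CPM with vehicle and at 5.88, 6.97, 7.64 and 8.30 CPM with FGF23, without overlap, as for 3.17% of all genes. Its log2 fold change was -0.82 ± 0.25 (unadjusted p = 0.00714, adjusted p = 0.849). Fgg was at 1.59, 1.67, 3.36 and 4.92 CPM and at 1.49, 1.55, 1.55 and 1.64 CPM (-0.91 ± 0.36, adjusted p = 0.849), and Fgb was at 0.605 to 1.46 CPM and at 0.0910 to 0.844 CPM (-1.14 ± 0.49, adjusted p = 0.849). For these genes the groups overlapped. The culture PCKS-V2 was highest for all 3, and without it the log2 fold changes were -0.49 for Fga, -0.50 for Fgg and -0.92 for Fgb. Osmr had a log2 fold change of -0.35 ± 0.22 (adjusted p = 0.849), and its lowest value, 73.6 CPM, belonged to PCKS-F1, the library least like its group. Of 8 genes tested, none was called by edgeR or DESeq2, and 0% of all genes were called. An unadjusted p under 0.05 was found for 3 of the 8 and for 4.89% of all genes. Fgb, 1 of the 3, had only 8 to 25 counts with vehicle and 1 to 12 with FGF23. At so few counts a gene can pass the count filter through the group where it is higher. Cell markers varied in the same slices. The neutrophil markers summed to 8.82 to 18.8 CPM with vehicle and to 5.91 to 10.98 CPM with FGF23, the injured-tubule markers to 10109 to 17865 CPM and to 9167 to 11062 CPM, and the kidney markers to 2443 to 5441 CPM and to 4091 to 7806 CPM. These ranges overlapped and no marker was called, but PCKS-V2 also had the highest neutrophil and injured-tubule sums. Their part in the fibrinogen values was not tested. The vehicle and FGF23 values of Socs3, Stat3, Saa3 and Hp overlapped. Among the 8 slices the correlation of deviations was 0.83 for Fga and Fgg and 0.42 for Fga and Fgb, and that of Fga was -0.43 with Socs3 and -0.49 with Stat3.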

How the data were processed

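RNA was prepared with a stranded mRNA kit. The authors aligned reads to GRCm38 with STAR 2.7.9a, counted them per Ensembl gene with featureCounts 1.5.1 and deposited raw counts without normalization; the settings for strand and for reads with several matches are not given in the sources used here. All 38 libraries were used. Column names of the mice do not match the sample titles, so each column was assigned to its labelled group, not to a single sample, from the headers of the supplementary tables of the study. The closest of 54 replicate pairs differed by a chi-square of 2.12 per degree of freedom, above sampling noise.

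Counts were tested with edgeR 4.0.16 (R 4.3.3, limma 3.58.1): TMM scaling, filterByExpr with a minimum count of 10, 1 quasi-likelihood fit per experiment with all its groups, and Benjamini-Hochberg adjustment over all tested genes of a comparison (15859 genes in the anti-GBM, 16020 in the Adriamycin and 15090 in the PCKS fit). A gene was called at an adjusted p under 0.05. CPM are counts scaled to library size with TMM factors, and log2 CPM used a prior count of 2. Lengths are those of the principal GENCODE transcript. The test was checked on simulated counts. Alternatives were RLE scaling, 2 other count filters, DESeq2 1.42.0, a robust fit, only the groups compared, a fold cutoff, a replicate block and each library left out.

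The genes and lists were chosen with earlier results of these data known. All 10 genes are described. Other genes are named only from the pathway and marker lists: those called, up to the 4 largest changes per list and comparison, Il6, Osm, Lif, Il11 and Il6st, and the 5 genes most like the fibrinogen genes or Socs3. Some called genes of these lists are not reported here. The study calls the slice cultures biologically independent; whether a vehicle and an FGF23 culture with 1 number share a mouse is not given in the sources used here.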

Additional observations from a re-analysis of the deposited data

Results flagged for a closer look

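In groups of 4, a library was picked out where its gap to the nearest of the others exceeded the 95% critical value of Dixon's test on the log2 CPM scale. Of 56 combinations of a gene and a group examined, 2 were picked out, where chance gives about 1 in 20, or 2.80. Osmr was at 5.75 CPM in the healthy FGF23-treated mouse Ad12 of the Adriamycin experiment, against 10.2 to 11.5 CPM in the other 3 mice of its group. Hp was at 0.579 CPM (only 9 counts) in the Adriamycin mouse Ad16 given FGF23, against 0.143 to 0.176 CPM (3 to 4 counts) in the other 3. Ad16 also had the only Adipoq of its group (3.09 CPM against 0 in the others). Neither gene was called in a comparison of these groups. No interaction of FGF23 with disease was called for the acute-phase genes tested, 8 in the anti-GBM and 6 in the Adriamycin experiment.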

How the results depend on the processing

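In anti-GBM disease the number of genes called ran from 6 to 9 with vehicle and from 6 to 7 with FGF23 over all alternatives, 9 without a count filter, when Saa2 and Saa3 were added, and 6 with at least 10 counts in every sample, when Saa1 was not tested (with vehicle also in a fit of only the groups compared). Fgb was not called with FGF23 without NTS9, NTS11 or NTS13. In Adriamycin mice given FGF23 against healthy mice given FGF23, 1 gene in place of none, Fga, was called without a count filter, with DESeq2 and, over the leave-one-out fits (0 to 1), without Ad12. In the other comparisons, none was called in any alternative, each library left out included. For FGF23 in anti-GBM disease the log2 fold change changed sign without NTS7 for Fga (0.15) and Fgg (0.22) and without NTS8 for Socs3 (0.058). With each library left out in turn, the lowest and highest values were -1.08 and 0.15 for Fga, -1.05 and 0.22 for Fgg, and -0.73 and 0.058 for Socs3. The cause was not tested. In a fit with a replicate block for the slices 0 genes were called, also with DESeq2 (chosen after seeing the data), and Fga had a log2 fold change of -0.77 (adjusted p = 0.705). The numbers are not shown to pair the slices: same-numbered cultures had correlations of 0.107, 0.105, -0.105 and 0.112. PCKS-V1, PCKS-V2 and PCKS-V4 were most like the FGF23 culture of their own number, whereas PCKS-V3 was most like PCKS-F1 (0.124). Of the FGF23 cultures, PCKS-F2 and PCKS-F4 were most like the vehicle culture of their own number, and PCKS-F1 and PCKS-F3 were not. With a prior count of 0.5, 3 of the 5 genes most like fibrinogen and all 5 most like Socs3 were shared. Depth limits Saa2, Saa3, Il6 and Osm in mice, which were at few counts.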
